A study of Mus musculus with 24 samples.

Results

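Hyaluronan is held, sensed, cut and made by the products of the 6 genes described here: Cd44, Hapln1, Vcan, Hmmr, Hyal2 and Has2. They were taken by symbol from the 12091 genes of the deposited expression table, which holds all 6. They were selected on their measured expression differences between PTN-inhibited and control samples in 4 mouse experiments. The differences in those 4 comparisons are therefore given as a description, without a test.

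Hyaluronan is a long, unsulfated sugar polymer that synthases at the plasma membrane extrude into the pericellular space and that hyaluronidases cut into shorter pieces. Link proteins lock the proteoglycan versican onto the chain, and CD44 at the cell surface binds the chain and connects to the actin cytoskeleton through ezrin, radixin and moesin. Breast tumors are often rich in hyaluronan, in the stroma as well as around the tumor cells.

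The study compared inhibition of pleiotrophin (PTN), a secreted heparin-binding cytokine, with control treatment by RNA sequencing of 24 mouse samples in 8 groups of 3. 4T1 tumors grew from a BALB/c mammary carcinoma line placed in the mammary fat pad of BALB/c mice at 8 wk of age, and treatment began once they were palpable. MMTV-PyMT tumors arose in FVB/N mice whose mammary epithelium carries the polyoma virus middle T transgene under the MMTV promoter, and treatment ran from 8 to 12 wk of age. In both tumor models female mice received either the anti-PTN antibody 3B10 or the control antibody C44 at 15 mg/kg, 2 times per week.

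E0771 is a mammary adenocarcinoma line of C57BL/6 origin, and E0771-LG was derived from a lung metastasis of E0771. Both were studied in culture without an antibody. Cells named shPTN carried an shRNA against Ptn, and cells named shCtrl carried the pLKO.1-puro vector with a sequence against EGFP. The same single shRNA was used in both lines, and shPTN and shCtrl cells were separately selected populations kept in puromycin. An effect of lower Ptn, an effect of that shRNA on other RNAs and a difference between selected populations cannot be told apart. The labels do not say whether the 3 samples of a group were separate cultures or animals (the study's methods speak of biological replicates), so p-values measure the spread between these samples.

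The values of the 18 MMTV-PyMT and cell line samples were on a log2 CPM scale (CPM, reads scaled to a common library size), from which whole reads could be recovered. Their libraries held 15.63 to 21.12 M reads counted on genes, with a median of 18.25 M. The 6 samples of 4T1 tumors were on another log2 scale, adjusted for gene length, and their depth is unknown, so levels were not compared between 4T1 and the other samples.

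Ptn was read first as a check of the labels. In E0771 cells Ptn had 128, 92 and 80 reads in shCtrl and 12, 21 and 22 reads in shPTN samples. In E0771-LG cells it had 216, 446 and 248 reads in shCtrl and 56, 35 and 45 reads in shPTN samples. Every shPTN sample lay under every shCtrl sample of its line. In MMTV-PyMT tumors Ptn had 133, 127 and 201 reads with C44 and 158, 142 and 303 reads with 3B10, and the groups overlapped. An antibody against the protein need not alter the RNA, so these tumor values check no label. In 4T1 tumors the log2 values of Ptn were −0.19, −0.65 and −0.12 with C44 and −0.76, 0.86 and 0.37 with 3B10, and these groups overlapped too.

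Several tumor libraries did not sort by treatment. Among the 4T1 tumors, C44 sample 3 and 3B10 sample 1 were more like each other than like any other sample, with a Pearson r of 0.983 across genes. In the leukocyte and epithelial marker sums, though, each lay with its own group, at 11100 and 3920 for C44 sample 3 and at 5130 and 5450 for 3B10 sample 1. Whether this likeness came from the tumors, their dissection or the labels was not tested. The 4T1 values that turn on these samples are given without each of them. Among the MMTV-PyMT tumors, C44 samples 2 and 3 were each most like 3B10 sample 2 (r of 0.974 and 0.959 across genes). Each of the 12 cell line libraries was most like a sample of its own group, with r between 0.982 and 0.991. Genes are not independent replicates, so these r values only describe the libraries.

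Marker genes of other cell types also moved with treatment in 4T1 tumors. The 14 leukocyte markers in the table, of which Lyz2 was the most abundant, had a summed level of 11400, 8310 and 11100 with C44 and of 5130, 7890 and 5210 with 3B10, off the log scale. All 3 samples given 3B10 lay under all 3 given C44. The summed epithelial level, led by Krt18, was 3540 to 3960 with C44 and 5370 to 5550 with 3B10, again without overlap. The muscle markers, led by Tnnt3, summed to 11.9 to 27.9 with C44 and 44.2 to 353 with 3B10. Stromal markers (1500 to 2400 against 1330 to 4760) and endothelial markers (105 to 279 against 94.7 to 219) overlapped. By limma at an unadjusted p under 0.05, 12 of 14 leukocyte, 6 of 9 epithelial, 5 of 5 muscle, 2 of 9 stromal, 0 of 5 endothelial and 0 of 1 adipocyte markers differed, beside 719 of all 11467 genes. After adjustment 0 did so. The share of these shifts in any 4T1 value of the hyaluronan genes was not tested.

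In MMTV-PyMT tumors the marker sums overlapped between treatments. The leukocyte level was 248 to 465 with C44 and 271 to 558 with 3B10, the epithelial level 4500 to 6440 and 4640 to 5460, and the stromal level 1380 to 3890 and 1870 to 2720. By limma at an unadjusted p under 0.05, 1 of 10 epithelial markers differed, and 0 of the 12 leukocyte, 9 stromal, 5 endothelial and 5 muscle markers did, beside 307 of all 11361 genes.

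The cell lines lacked most of these markers. Of 14 leukocyte genes, 11 were under 1 CPM in every cell line group, among them Ptprc, the general leukocyte marker, and Csf3r of granulocytes. Of the epithelial markers, Cldn3, Cldn4, Krt19 and Krt5 were at 0 in all shCtrl samples of both lines and Cdh1 was under 1 CPM. Krt8 and Epcam were expressed, with Epcam at 6.32 to 8.46 CPM in E0771 shCtrl and 14 to 15.7 CPM in E0771-LG shCtrl samples. Krt8 averaged 98.5 and 159 CPM in these groups, and 95.2 and 473 CPM in E0771 and E0771-LG shPTN cells. Krt8 thus made up most of the epithelial sum. The summed epithelial level was 99.3 to 114 in E0771 shCtrl and 99.6 to 115 in E0771 shPTN cells, against 158 to 204 in E0771-LG shCtrl and 424 to 565 in E0771-LG shPTN cells. The stromal sum was 74.8 to 101 and 293 to 331 in E0771, and 92 to 145 and 58.3 to 73.8 in E0771-LG, shCtrl before shPTN. By limma, 5 of 5 tested stromal markers rose with shPTN in E0771 cells, while 1 of 6 rose and 2 fell in E0771-LG cells, and Col1a1, a collagen gene, fell by 4.68 in the latter. Of the epithelial markers, 0 of 2 were called in E0771 and 3 of 3 rose in E0771-LG, and of the leukocyte markers 1 of 3 and 2 of 3 rose. Endothelial markers summed to at most 3.31 in any cell sample and 0 were called by limma, Fabp4 was the only adipocyte marker tested and fell in E0771-LG, and 1 of 2 muscle markers fell there. The part of these shifts in the values of the hyaluronan genes was not tested.

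The 6 genes lie on 5 chromosomes of the GRCm38 build. The receptor gene Cd44 (ENSMUSG00000005087) is at chr2:102811141-102901665 on the minus strand, and the receptor gene Hmmr (ENSMUSG00000020330) is at chr11:40701395-40733422, also on the minus strand. Hapln1 (ENSMUSG00000021613) and Vcan (ENSMUSG00000021614) are neighbours at chr13:89539796-89611652 on the plus strand and chr13:89655312-89742509 on the minus strand. Their ends face each other across 43659 bp. Hyal2 (ENSMUSG00000010047) is at chr9:107567945-107572779 on the plus strand, and Has2 (ENSMUSG00000022367) is at chr15:56665627-56694539 on the minus strand. Overlapping or antisense genes are annotated at 5 of the 6, namely Gm23731 at Cd44, Gm8546 at Hapln1, Gm16318 and Gm4117 at Vcan, Gm9917 at Hyal2 and Has2os at Has2. Whether counting used the strand is not given in the sources used here, so reads of each pair cannot be told apart.

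Not every gene was abundant enough to be compared everywhere. A gene was compared where at least 3 of the 6 samples reached a value of 1, off the log scale. Cd44, Vcan, Hmmr and Hyal2 passed in every comparison. Has2 passed in both tumor models and was below the filter in the cell lines. Hapln1 was below the filter in both tumor models and in E0771 cells. In E0771-LG cells all 3 shPTN samples and shCtrl sample 2 reached that value, so it passed there.

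**Figure D1:**
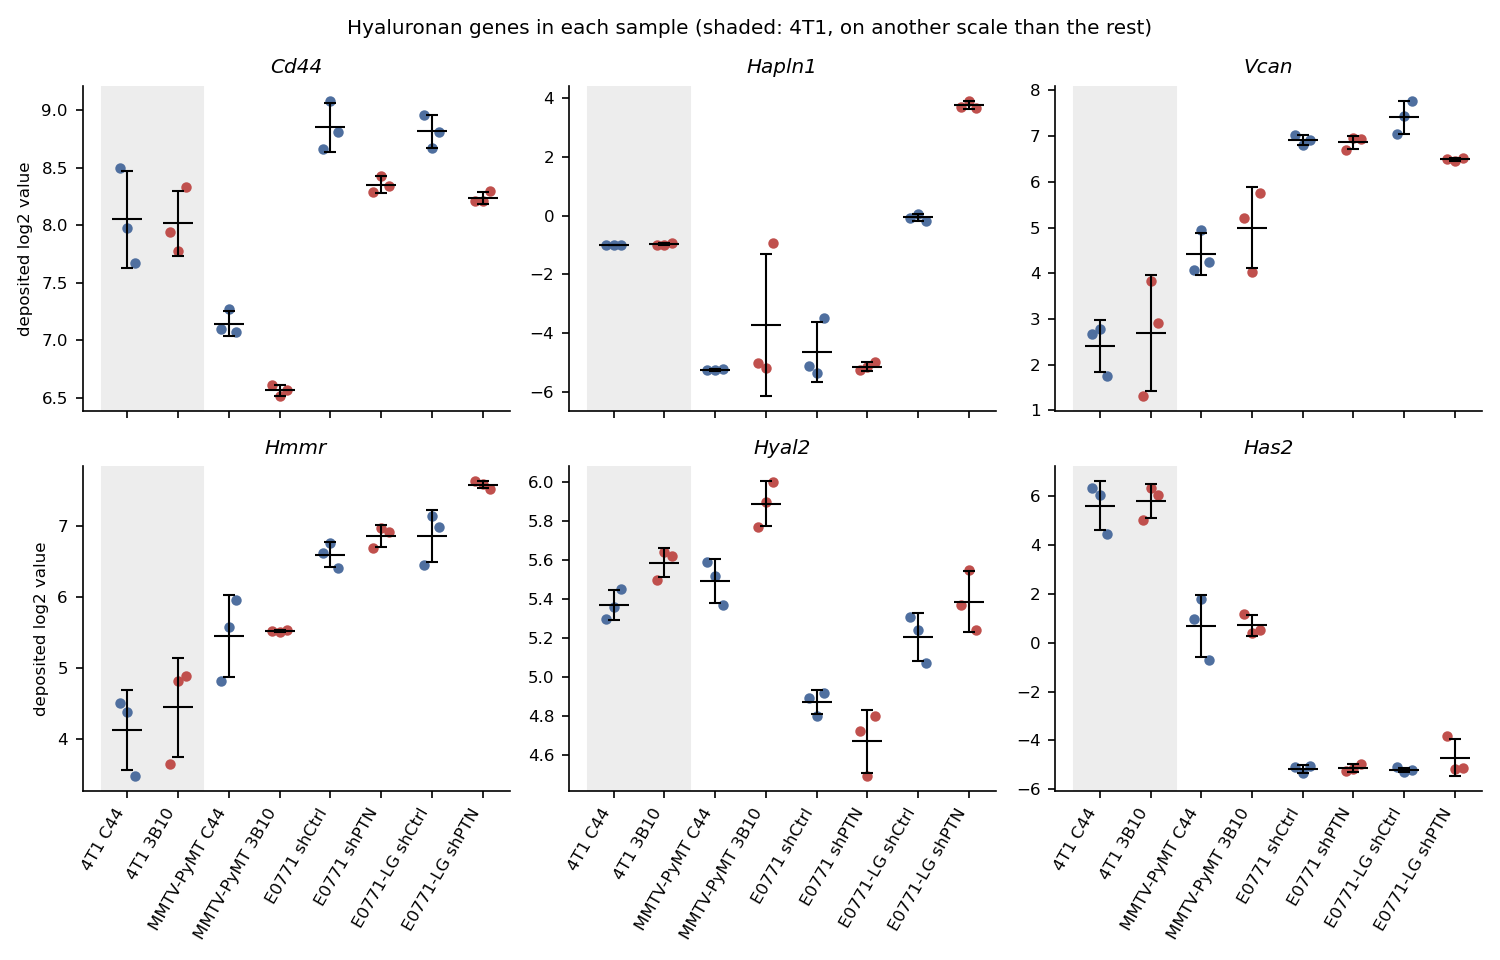
Deposited log2 value of each hyaluronan gene (vertical axis, a panel per gene) in the 24 samples by group, where dots are samples, blue is control, red is PTN-inhibited, lines are means, bars are SD (n = 3) and shading marks the 4T1 scale. Cd44 sat at 8.29 to 8.43 in E0771 shPTN and 8.66 to 9.08 in E0771 shCtrl cells, and Hapln1 sat at 3.67 to 3.92 in E0771-LG shPTN and −0.17 to 0.07 in E0771-LG shCtrl cells.

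Cd44 encodes the principal cell surface receptor for hyaluronan. In MMTV-PyMT tumors its log2 value was 7.10, 7.27 and 7.07 with C44 and 6.61, 6.52 and 6.57 with 3B10. All 3 tumors given 3B10 lay under all 3 given C44, by −0.58 on the log2 scale (SE 0.12), a ratio of 1.5. The counts behind this were 2523 to 2967 reads with C44 and 1539 to 1688 reads with 3B10. In bulk tumor tissue, fewer cells that carry an RNA and less of that RNA per cell cannot be told apart.

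In E0771 cells the log2 value of Cd44 was 8.66, 9.08 and 8.81 with shCtrl and 8.29, 8.43 and 8.34 with shPTN, from 5070 to 11061 reads. In E0771-LG cells it was 8.96, 8.67 and 8.81 with shCtrl and 8.21, 8.21 and 8.30 with shPTN, from 5328 to 8599 reads. Neither line had a shPTN sample as high as a shCtrl sample. The log2 difference was −0.50 (SE 0.11) in E0771 and −0.57 (SE 0.10) in E0771-LG, ratios of 1.41 and 1.49. Of the leukocyte markers, 11 of 14 were under 1 CPM in every group of these cells. Of the 3 tested by limma, 1 rose with shPTN in E0771 (Lyz2, by 2.23), where 20.6% of all genes were called. In E0771-LG 2 of 3 rose (Cd68 by 2.17 and Lyz2 by 1.27), where 46.4% of all genes were called. The stromal sum was higher with shPTN in E0771 and lower in E0771-LG, where the epithelial sum, mostly Krt8, was higher. The part of these shifts in the Cd44 values was not tested.

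In 4T1 tumors the log2 value of Cd44 was 8.50, 7.98 and 7.67 with C44 and 7.94, 7.78 and 8.33 with 3B10. The groups overlapped and their means differed by −0.03 (SE 0.23). It was −0.22 without C44 sample 3, and 0.19, 0.01 and 0.09 without C44 sample 1, 3B10 sample 1 and 3B10 sample 2, so its direction turned on single tumors.

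Hmmr encodes a hyaluronan-binding protein that sits largely on the mitotic spindle and is also known as RHAMM or CD168. In E0771-LG cells its log2 value was 6.45, 7.14 and 6.99 with shCtrl and 7.63, 7.59 and 7.53 with shPTN. The 3 shPTN samples lay close together above all shCtrl samples, by 0.72 (SE 0.16), a ratio of 1.65. In E0771 cells the values were 6.62, 6.76 and 6.41 with shCtrl and 6.69, 6.98 and 6.92 with shPTN, and the groups overlapped, with a log2 difference of 0.26 (SE 0.11) that ranged from 0.17 without shCtrl sample 3 to 0.35 without shCtrl sample 2.

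In the tumors Hmmr values overlapped between treatments. In MMTV-PyMT tumors its log2 value was 4.82, 5.57 and 5.96 with C44 and 5.52, 5.51 and 5.53 with 3B10, with a difference of 0.07 (SE 0.27). The C44 tumors lay on both sides of the narrow 3B10 group, and the difference was −0.24 without C44 sample 1 and 0.32 without C44 sample 3. In 4T1 tumors it was 4.50, 4.38 and 3.47 with C44 and 3.64, 4.81 and 4.88 with 3B10, with a difference of 0.33 (SE 0.40). The low samples were C44 sample 3 and 3B10 sample 1, each the library most like the other. The difference was 0.01 without the first and 0.73 without the second.

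Vcan encodes versican, the large chondroitin sulfate proteoglycan whose globular end binds hyaluronan. In E0771-LG cells its log2 value was 7.04, 7.44 and 7.76 with shCtrl and 6.49, 6.46 and 6.53 with shPTN. The shPTN samples were tightly grouped below the more scattered shCtrl samples, by −0.92 (SE 0.16), a ratio of 1.9. In E0771 cells it was 7.02, 6.81 and 6.91 with shCtrl and 6.70, 6.95 and 6.94 with shPTN. These overlapped, with a difference of −0.05 (SE 0.10) that ranged from −0.10 to 0.03 as single samples were left out.

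Vcan varied more among the tumors than among the cells. In MMTV-PyMT tumors the log2 value was 4.08, 4.94 and 4.25 with C44 and 5.22, 4.02 and 5.75 with 3B10, so 3B10 tumors held both the lowest and the highest value. The difference was 0.57 (SE 0.45), and 0.20 to 1.06 when single tumors were left out. In 4T1 tumors it was 2.68, 2.78 and 1.75 with C44 and 1.32, 3.84 and 2.91 with 3B10. C44 sample 3 and 3B10 sample 1 were again the lowest of their groups. The difference was 0.29 (SE 0.61), with 0.97 without 3B10 sample 1, −0.29 without 3B10 sample 2 and −0.04 without C44 sample 3.

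Hapln1 encodes hyaluronan and proteoglycan link protein 1, which ties versican and aggrecan to the hyaluronan chain. In E0771-LG cells it had 16, 20 and 16 reads with shCtrl and 275, 273 and 221 reads with shPTN, log2 values of −0.07, 0.07 and −0.17 against 3.71, 3.92 and 3.67. The groups were far apart and each was narrow. The fitted log2 difference was 3.82 (SE 0.26), and the ratio of pooled reads (769 against 52) after scaling to library size was 14.5, with a 95% counting interval of 10.9 to 19.6. Reads were amplified without molecular identifiers, so this interval and the detection floors given here cover counting error only.

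Outside E0771-LG, Hapln1 was at or near 0. E0771 cells had 0, 0 and 1 read with shCtrl and 0, 0 and 0 reads with shPTN. MMTV-PyMT tumors had 0 reads in 5 samples and 8 reads in 3B10 sample 3. In 4T1 tumors it was at −0.98, the lowest value the scale takes, except at −0.93 in 3B10 sample 3. No fold between treatments was computed for these 3 experiments.

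Hyal2 encodes a hyaluronidase anchored to the cell membrane that cuts long hyaluronan. In MMTV-PyMT tumors its log2 value was 5.59, 5.52 and 5.37 with C44 and 5.77, 5.90 and 6.00 with 3B10. Every 3B10 tumor was above every C44 tumor, by 0.39 (SE 0.14), a ratio of 1.31. In 4T1 tumors it was 5.30, 5.36 and 5.45 with C44 and 5.50, 5.64 and 5.62 with 3B10. Here too the groups did not overlap, and the difference was 0.22 (SE 0.12), alongside the lower leukocyte and higher epithelial and muscle marker sums in the 3B10 tumors, whose part in the result was not tested.

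In the cell lines Hyal2 differed little between groups. In E0771 its log2 value was 4.89, 4.80 and 4.92 with shCtrl and 4.72, 4.49 and 4.80 with shPTN. The lowest shCtrl and the highest shPTN sample were equal to 2 decimals, though the groups did not cross, and the difference was −0.20 (SE 0.12), or −0.11 without shPTN sample 2 and −0.12 with quantile normalization. In E0771-LG it was 5.31, 5.24 and 5.07 with shCtrl and 5.37, 5.55 and 5.24 with shPTN, and these overlapped, with a difference of 0.18 (SE 0.13), or 0.10 without shPTN sample 2 and 0.11 without shCtrl sample 3.

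Has2 encodes the hyaluronan synthase that makes long chains and is the main synthase in many mesenchymal cells. It was close to absent from the cells in culture. In 11 of the 12 cell line samples it had 0 reads, and E0771-LG shPTN sample 1 had 1 read. The groups without a read allow at most 0.0553 CPM in E0771 shCtrl, 0.0566 in E0771 shPTN and 0.0541 in E0771-LG shCtrl cells, taken as 3 reads over the group.

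Has2 was present in tumors. In MMTV-PyMT tumors it had 37, 66 and 11 reads with C44 and 37, 24 and 23 reads with 3B10, log2 values of 0.97, 1.79 and −0.71 against 1.20, 0.41 and 0.53. C44 tumors held both extremes, and the difference of 0.03 (SE 0.65) became −0.66 without C44 sample 3, −0.21 without 3B10 sample 1 and 0.58 without C44 sample 2. In 4T1 tumors the log2 value was 6.34, 6.05 and 4.47 with C44 and 5.02, 6.35 and 6.04 with 3B10. The lowest in each group were C44 sample 3 and 3B10 sample 1, and the difference was 0.19 (SE 0.52), −0.39 without the first and 0.58 without the second.

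**Figure D2:**
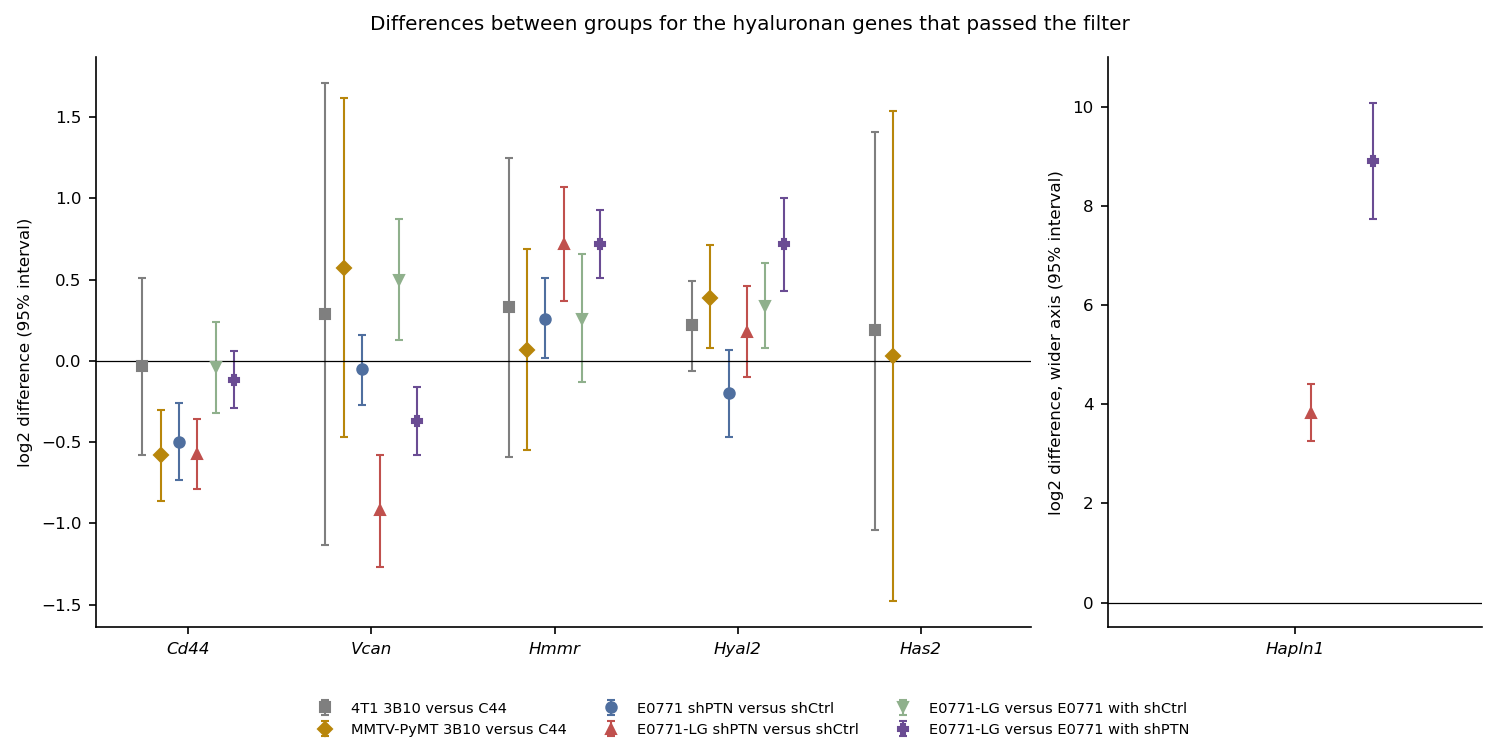
Log2 difference (vertical axis) of each hyaluronan gene that passed the filter (horizontal axis), with its 95% interval from limma (bars) in the 4 inhibition comparisons and the 2 comparisons of E0771-LG with E0771, with Hapln1 on a wider axis, where its fitted difference between the shPTN lines depends on the offset and is no bound. The genes were picked on the inhibition comparisons, whose libraries the line comparisons share, so the bars describe spread and are no test. Between the shPTN lines Hapln1 passed the filter only through its high group. Cd44 lay at −0.58, −0.50 and −0.57 in MMTV-PyMT, E0771 and E0771-LG and at −0.03 in 4T1.

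Groups without overlap were then counted in the 4 inhibition comparisons. They were found for 1 of 5 compared hyaluronan genes in 4T1 (Hyal2), where 11.3% of all 11467 genes tested also separated, and 2 of 5 in MMTV-PyMT (Cd44 and Hyal2), beside 8.34% of 11361 genes. In E0771 cells 2 of 4 separated (Cd44 and Hyal2), beside 39.4% of 10394 genes, and in E0771-LG cells 4 of 5 did (Cd44, Hapln1, Vcan and Hmmr), beside 57.1% of 10405 genes. The genes were picked with these comparisons known, so nothing is read from the counts.

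Which of these genes were abundant was compared per length, as CPM per kilobase of exon (mean ± SD, n = 3), outside the 4T1 tumors. In E0771 shCtrl cells Cd44 led at 68.6 ± 10.4, followed by Hmmr at 17.9 ± 2.16. Hyal2 at 8.88 ± 0.38 and Vcan at 8.36 ± 0.586 came next and did not differ beyond their spread. The same order of Cd44 and Hmmr held in E0771-LG shCtrl cells, at 66.5 ± 6.73 and 21.8 ± 5.08, where Vcan at 12.1 ± 2.95 and Hyal2 at 11.2 ± 0.945 again were not separated. Hapln1 was far below them at 0.158 ± 0.0137.

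With shPTN, the per-length level in E0771-LG cells was 44.5 ± 1.6 for Cd44, 35.3 ± 1.22 for Hmmr, 12.7 ± 1.41 for Hyal2, 6.22 ± 0.158 for Vcan and 2.31 ± 0.224 for Hapln1. Each of these was separated from the next. In E0771 shPTN cells Cd44 was at 48.3 ± 2.34 and Hmmr at 21.5 ± 2.21, while Vcan at 8.06 ± 0.771 and Hyal2 at 7.74 ± 0.835 could not be ordered. In MMTV-PyMT tumors with C44 the level was 20.9 ± 1.58 for Cd44, 13.7 ± 1.03 for Hyal2, 8.46 ± 3.13 for Hmmr, 1.54 ± 0.516 for Vcan and 0.468 ± 0.336 for Has2. With 3B10 the level was 14 ± 0.441 for Cd44, 18 ± 1.48 for Hyal2, 8.44 ± 0.0594 for Hmmr, 2.47 ± 1.3 for Vcan and 0.392 ± 0.125 for Has2. Hyal2 thus stood second behind Cd44 with C44 and ahead of it with 3B10.

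**Figure D3:**
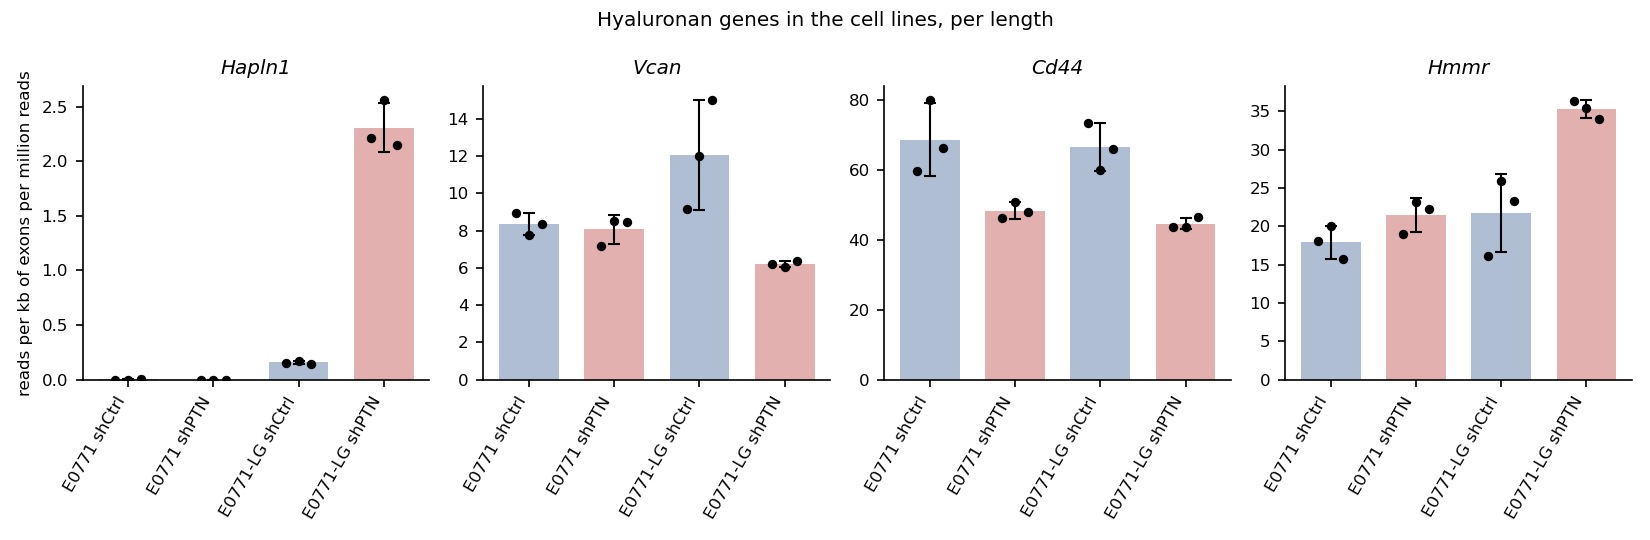
Level of Hapln1, Vcan, Cd44 and Hmmr in E0771 and E0771-LG cells (vertical axes, CPM per kilobase of exon), with bars for means (blue shCtrl, red shPTN), error bars for SD (n = 3) and dots for samples. Hapln1 averaged 2.31 in E0771-LG shPTN and 0.158 in E0771-LG shCtrl cells, and Vcan 6.22 against 12.1.

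The lines were also compared with each other, E0771-LG against E0771, at the same vector. These comparisons did not choose the genes, but they use the same 12 libraries as the knockdown comparisons that did, so the hyaluronan genes are described here without a test and limma's test is given for other genes only. With shCtrl, 54.5% of 10411 genes were called at an adjusted p under 0.05 (2004 higher and 3672 lower in E0771-LG), and 63.6% had groups without overlap. With shPTN, 63.9% of 10508 genes were called (2756 higher and 3963 lower), and 69.1% had no overlap. The all-gene median lay at −0.15 with shCtrl and −0.10 with shPTN, and median-of-ratios scaling, which removes such a shift, is given beside the values of the hyaluronan genes and the list counts. The share of calls higher in E0771-LG with shCtrl was 35.3%, against 50.2% with median-of-ratios scaling and 51.4% with quantile normalization. With shPTN it was 41%, against 50.1% and 50.6%. Of the other genes picked for naming between lines, Pdhx (−0.02 against 0.13) and Tusc2 (−0.08 against 0.07) changed sign with shCtrl. They were called with neither scaling. In all, 23 of 26 with shCtrl and 22 of 22 with shPTN had the same call with median-of-ratios scaling, in the same direction where called. The exceptions were Adam17, a CD44 sheddase (−0.37, limma adjusted p = 0.034, against −0.22, adjusted p = 0.15), Uap1 of UDP-sugar synthesis (−0.40, adjusted p = 0.0067, against −0.25, adjusted p = 0.058) and Nudcd2, given with Hmmr.

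With shCtrl, 2 of 4 compared hyaluronan genes (Vcan and Hyal2) had groups without overlap between the lines, beside 63.6% of all genes. Vcan was higher in all 3 E0771-LG samples, by 0.50 (SE 0.16), or 0.65 with median-of-ratios scaling, and by 0.33 to 0.69 as single samples were left out. The lowest of these was without E0771-LG shCtrl sample 3. Hyal2 was higher in all 3 E0771-LG samples by 0.34 (SE 0.12), or 0.49 with median-of-ratios scaling and 0.59 with quantile normalization, and by 0.28 to 0.40 as single samples were left out.

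Hmmr and Cd44 overlapped between the shCtrl lines. Hmmr differed by 0.26 (SE 0.17), or 0.41 with median-of-ratios scaling, by 0.12 without E0771-LG shCtrl sample 2 and by 0.47 without E0771-LG shCtrl sample 1. Cd44 differed by −0.04 (SE 0.12), by 0.11 with median-of-ratios scaling and by −0.16 with quantile normalization, so no direction can be given for it. Hapln1, below the filter, had 52 pooled reads in E0771-LG shCtrl and 1 in E0771 shCtrl cells, a ratio of 50.9 after scaling to library size with a counting interval of 8.74 to 2050.

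With shPTN, 4 of 5 compared hyaluronan genes had groups without overlap between the lines, all but Cd44, beside 69.1% of all genes. Hmmr lay above E0771 in all 3 E0771-LG samples by 0.72 (SE 0.09) and Hyal2 by 0.72 (SE 0.13), both by 0.83 with median-of-ratios scaling. Vcan lay below E0771 in all 3, at −0.37 (SE 0.09), or −0.25 with median-of-ratios scaling. Cd44 differed by −0.12 (SE 0.08), or −0.00 with median-of-ratios scaling. Hapln1 passed the filter only through its high group, E0771-LG, and had to differ, being at least 240-fold higher there than the floor of 0.0566 CPM that 3 reads over the E0771 shPTN group would give.

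Vcan thus lay higher in E0771-LG than in E0771 among shCtrl cells and lower among shPTN cells, and Hyal2 lay higher with both vectors. Whether a line difference depended on the vector was not tested for the hyaluronan genes. For comparison, the knockdown effect differed between the lines for 34.7% of 10223 genes by limma's interaction term at an adjusted p under 0.05.

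Hapln1 and Vcan are the closest neighbours among the 6 genes, and in E0771-LG cells their log2 differences had opposite signs, 3.82 and −0.92. The next gene beyond Vcan in the table, Xrcc4, which encodes a DNA end-joining factor, lies 31517 bp away. It differed by −0.35 (limma adjusted p = 0.16) in E0771 and by 0.07 (limma adjusted p = 0.69) in E0771-LG cells with shPTN. Between lines Xrcc4 was higher in E0771-LG, by 0.52 (limma adjusted p = 0.009) with shCtrl and 0.94 (limma adjusted p = 3.7e-04) with shPTN.

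Beside Hmmr lie Nudcd2, at 244 bp, and Mat2b, which encodes the regulatory subunit of methionine adenosyltransferase II, at 6191 bp. In E0771-LG cells with shPTN, Mat2b rose by 0.36 (limma adjusted p = 0.0092) and Nudcd2 differed by 0.17 (limma adjusted p = 0.22). In E0771 cells neither was called, at 0.07 (limma adjusted p = 0.7) for Mat2b and −0.15 (limma adjusted p = 0.45) for Nudcd2. Between lines Mat2b was higher in E0771-LG, by 0.75 (limma adjusted p = 1.6e-04) with shCtrl and 1.04 (limma adjusted p = 7.3e-06) with shPTN. Nudcd2 was higher by 0.51 (limma adjusted p = 0.0052) with shPTN, and with shCtrl it differed by 0.18 (limma adjusted p = 0.18), or by 0.33 (adjusted p = 0.028) with median-of-ratios scaling. Tusc2, 1832 bp from Hyal2, rose with shPTN by 0.66 (limma adjusted p = 0.022) in E0771 and 0.98 (limma adjusted p = 3.5e-04) in E0771-LG cells, unlike Hyal2 with −0.20 and 0.18. Pdhx, 119409 bp from Cd44, differed by 0.17 (limma adjusted p = 0.35) and −0.01 (limma adjusted p = 0.93).

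Promoters were searched for short motifs because Hapln1, Vcan and Hmmr differed in the same cells. RefSeq promoters on GRCm38.p6, from 250 bases before to 50 after the RefSeq start, matched 5 of the 6 genes, and Has2 was not matched. The RefSeq start was within 15 bp of the annotated gene start for Cd44, Vcan and Hmmr. It lay 840 bp inside the annotated gene for Hapln1 and 1218 bp inside it for Hyal2, so these windows do not cover the outermost start. For Hyal2 an annotated transcript began 22 bp away, and for Hapln1 the closest began 840 bp away. Both strands were searched for AP-1 (TGANTCA), the κB motif, the CCAAT box (CCAAT) and the cell cycle homology region (TTTGAA, CHR). These occur in 7.81%, 8.46%, 37.4% and 17.9% of all 32817 promoters. The CCAAT and CHR motifs were added after the Hmmr sequence had been read.

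The promoters of Hapln1, Vcan and Hmmr are shown, the genes with the widest differences in E0771-LG, 5′ to 3′ on the gene's strand, with motif matches in capitals. Hapln1 is at chr13:89540386-89540685 (plus strand), Vcan at chr13:89742463-89742762 (minus strand) and Hmmr at chr11:40733388-40733687 (minus strand).
Hapln1: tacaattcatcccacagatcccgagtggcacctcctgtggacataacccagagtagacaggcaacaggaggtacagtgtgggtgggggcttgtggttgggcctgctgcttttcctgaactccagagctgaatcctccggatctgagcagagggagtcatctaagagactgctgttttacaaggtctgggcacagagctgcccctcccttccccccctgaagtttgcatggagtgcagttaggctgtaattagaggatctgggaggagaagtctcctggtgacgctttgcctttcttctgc
Vcan: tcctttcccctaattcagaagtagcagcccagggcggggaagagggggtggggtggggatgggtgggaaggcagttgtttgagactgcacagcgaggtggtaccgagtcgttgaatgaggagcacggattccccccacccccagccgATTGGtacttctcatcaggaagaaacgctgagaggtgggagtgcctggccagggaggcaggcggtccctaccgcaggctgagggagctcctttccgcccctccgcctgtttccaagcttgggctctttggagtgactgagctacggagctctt
Hmmr: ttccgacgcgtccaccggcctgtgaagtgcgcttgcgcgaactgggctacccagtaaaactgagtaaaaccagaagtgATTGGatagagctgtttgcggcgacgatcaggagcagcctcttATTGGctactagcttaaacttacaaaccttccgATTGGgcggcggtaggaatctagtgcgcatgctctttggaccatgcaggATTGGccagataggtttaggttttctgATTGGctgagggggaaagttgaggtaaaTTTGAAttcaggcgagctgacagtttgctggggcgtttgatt

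The Hmmr promoter held 5 CCAAT matches, all on the reverse strand (ATTGG), with first bases at −172, −129, −96, −47 and −20 from the RefSeq start, and a CHR match at 9. At least 5 CCAAT matches occurred in 89 promoters, or 0.271% of all. Vcan had 1 CCAAT match, on the reverse strand at −103, and Hapln1 had no match to any of the 4 motifs. Cd44 (chr2:102901616-102901915) had none either, and Hyal2 (chr9:107568913-107569212) had 1 κB match at −238 from its RefSeq start. Of the mitosis genes described with Hmmr here that had a promoter, 16 of 18 (88.9%) held CCAAT and 12 of 18 (66.7%) held CHR in any promoter of the gene. The shares of all promoters given above count single promoters, so the units differ. A match describes the letters in the window and is not evidence of a bound factor.

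Genes whose values most resembled each of the 4 abundant genes across the 12 cell line samples were ranked among 10223 genes by Pearson r. Cd44 was most like Arl5b (0.979), Myadm (0.960) and Tpp2 (0.955). Hmmr was most like Rpn1 (0.974), Rsrc2 (0.966) and Brd7 (0.949). Vcan was most like Wwc2 (0.933), Pax5 (0.929) and Usp24 (0.926), and Hyal2 was most like Stoml2 (0.971), Txndc17 (0.966) and Dimt1 (0.966). The 12 samples fall into 4 groups, so these values largely describe group means.

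In tumors the genes were set beside the marker sums in the 6 samples of each model, as a description. Over 5 genes, 6 lists and both models this gave 60 relations, and those named were picked for their size after they were seen. In MMTV-PyMT tumors Has2 went with the stromal sum (r of 0.98, rho of 1.00) and also with the leukocyte (r of 0.85, rho of 0.94), endothelial (r of 0.77, rho of 0.66), adipocyte (r of 0.76, rho of 0.89) and epithelial sums (r of 0.72, rho of 0.60). The relation was thus not limited to the stromal sum, and which cells carried Has2 was not tested. Vcan went with the stromal sum in 4T1 tumors (r of 0.92, rho of 0.94) but less so in MMTV-PyMT (r of 0.26, rho of 0.37). Hyal2 in 4T1 tumors went with the epithelial sum (r of 0.90, rho of 0.77) and the muscle sum (r of 0.95, rho of 0.89) and against the leukocyte sum (r of −0.62, rho of −0.71). Cd44 in 4T1 tumors went against the adipocyte marker Fabp4 (r of −0.89, rho of −0.83) and the endothelial sum (r of −0.68, rho of −0.54), while with the leukocyte sum its r was −0.07 (rho of 0.14), and 0.19 (rho of 0.37) in MMTV-PyMT. Hmmr in MMTV-PyMT tumors went against the muscle sum (r of −0.92, rho of −0.66) and the epithelial sum (r of −0.75, rho of −0.66). The samples include both treatments and share their libraries with the gene values.

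**Figure D4:**
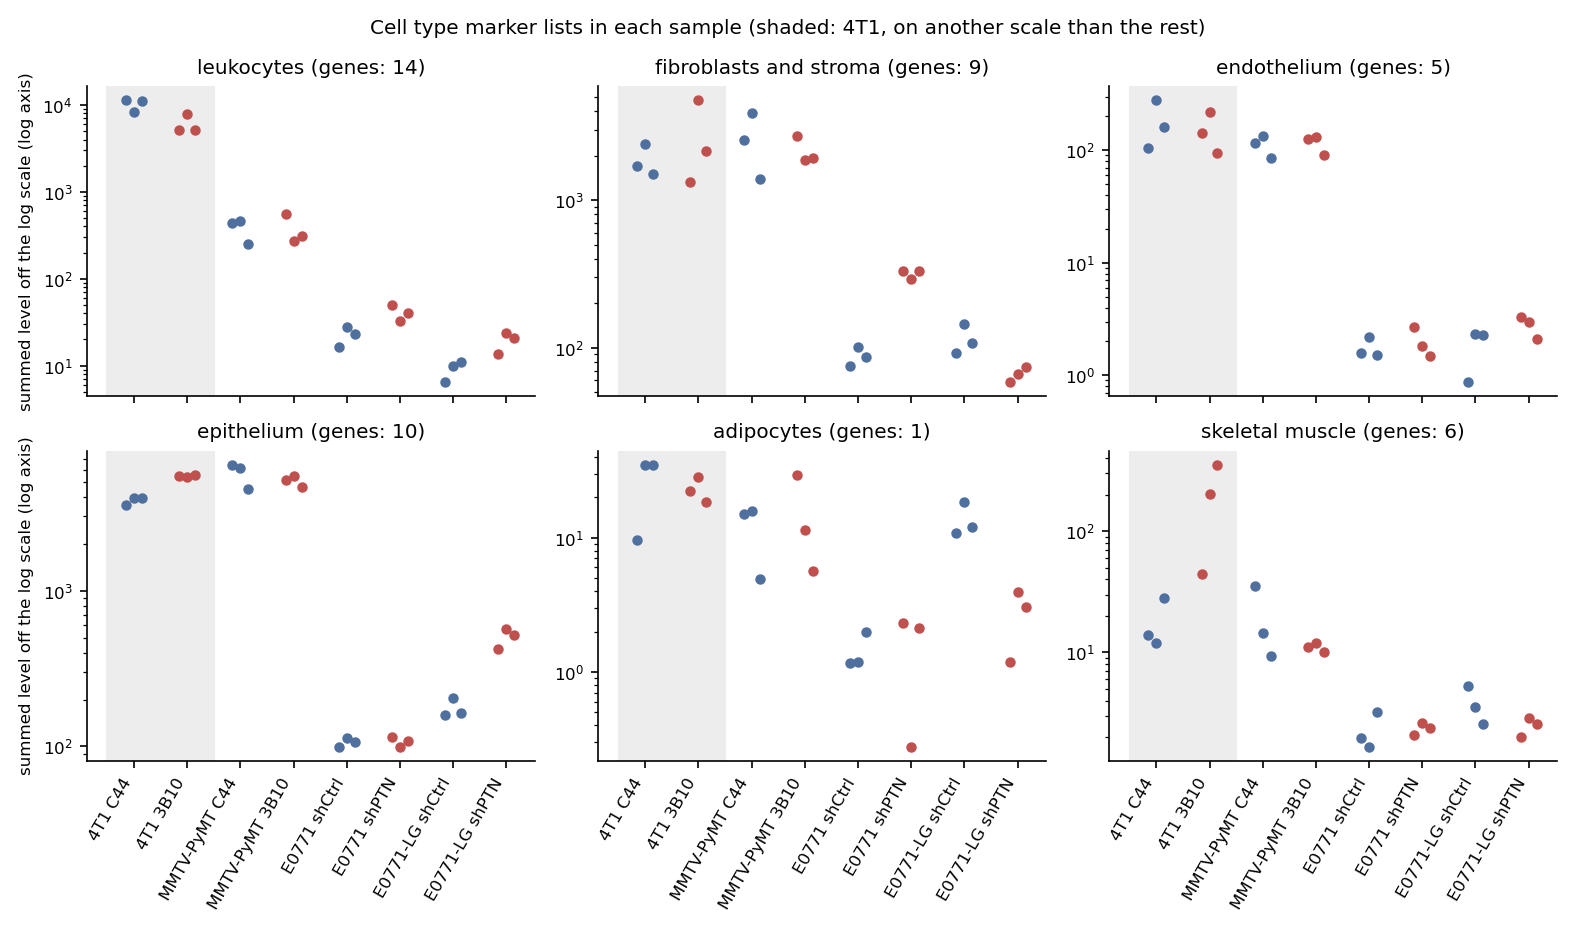
Summed level of 6 marker lists in each of the 24 samples by group (vertical axes, values off the log scale, log axis), where dots are samples, blue is control, red is PTN-inhibited and shading marks the 4T1 scale. In 4T1 tumors the leukocyte sum was 8310 to 11400 with C44 and 5130 to 7890 with 3B10.

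Other genes of hyaluronan metabolism and binding were taken from lists of 107 symbols, of which 79 were in the table. Has1, Has3, Hyal1, Hyal3 and Cemip were not analysed here. In 4T1 tumors 0 of 79 were called by limma, as were 0% of all 11467 genes, and 12 of 79 (719 of all) had an unadjusted p under 0.05. In MMTV-PyMT tumors 0 of 78 were called by limma and 0% of all 11361 genes, with 9 of 78 (307 of all) at an unadjusted p under 0.05 and 0 genes called with voom weights. The median difference of the list was 0.09 against 0.01 for all genes in 4T1, and 0.06 against 0.05 in MMTV-PyMT.

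In E0771 cells 21 of 68 list genes were called between shPTN and shCtrl (13 higher and 8 lower with shPTN), while 20.6% of all 10394 genes tested were called (924 higher and 1216 lower). The list median was 0.05 and that of all genes −0.03. The list count was 13 without shCtrl sample 3 and 11 without shPTN sample 3, and the 2140 genes called in all became 1268 without shCtrl sample 2, 1164 without shCtrl sample 3 and 1220 without shPTN sample 3. In E0771-LG cells 26 of 69 list genes were called (12 higher and 14 lower) beside 46.4% of all genes (2531 higher and 2295 lower), with medians of −0.03 and 0.05. Here 17 list genes were called without shPTN sample 3, and 3206 of all genes, in place of 4826, without shPTN sample 2. The share of all calls higher with shPTN was 43.2% in E0771, against 49.4% with median-of-ratios scaling. In E0771-LG it was 52.4%, against 48.9%, so the larger side depended on the scaling.

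Of the enzymes of synthesis and turnover, 4 of 10 were tested in cells. Calls in this and the following lists stand beside those of all genes, 20.6% in E0771 and 46.4% in E0771-LG with shPTN. Between lines 54.5% of all genes were called with shCtrl and 63.9% with shPTN. Gusb, the lysosomal β-glucuronidase, rose by 0.35 (SE 0.10, limma adjusted p = 0.03) in E0771 shPTN cells and was the only one of the 4 called there (median 0.13). In E0771-LG shPTN cells Hexa, which encodes a lysosomal hexosaminidase chain, rose by 0.75 (SE 0.15, limma adjusted p = 0.0021) and Cemip2, a cell surface protein of hyaluronan breakdown, fell by 0.57 (SE 0.18, limma adjusted p = 0.026), with a median of 0.06. Between lines 2 of the 4 were lower in E0771-LG with shCtrl and 4 of 4 with shPTN, among them Hexa at −0.83 (limma adjusted p = 0.001) with shCtrl and Cemip2 at −0.97 (limma adjusted p = 1.3e-05) with shPTN. With median-of-ratios scaling 2 and 3 of the 4 were lower. In tumors 0 of 4 in 4T1 and 1 of 4 in MMTV-PyMT had an unadjusted p under 0.05 by limma.

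The enzymes that make the UDP-sugar precursors were 7 of 9 tested in cells. In E0771 shPTN cells Pgm2 (−0.43, SE 0.10, limma adjusted p = 0.01) and Pgm1 (−0.32, SE 0.09, limma adjusted p = 0.035), phosphoglucomutases, fell and none rose (median −0.14). In E0771-LG shPTN cells Gfpt1, the entry enzyme of the hexosamine pathway, fell by 0.70 (SE 0.11, limma adjusted p = 6.0e-04) and Ugp2, which makes UDP-glucose, rose by 0.30 (SE 0.11, limma adjusted p = 0.046), with a median of −0.03. Ugdh, which oxidizes UDP-glucose to UDP-glucuronic acid, was lower in E0771-LG than in E0771, at −0.61 (limma adjusted p = 3.3e-04) with shCtrl and −0.51 (limma adjusted p = 0.0012) with shPTN. It was among 3 lower genes of the 7 with shCtrl and 2 lower and 1 higher with shPTN. With median-of-ratios scaling 1 was lower and 1 higher with shCtrl, and 2 lower and 1 higher with shPTN. By limma 0 of 8 in 4T1 and 0 of 7 in MMTV-PyMT tumors had an unadjusted p under 0.05.

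Of other hyaluronan-binding and link genes, 7 of 22 were tested in cells, and 0 of 8 had an unadjusted p under 0.05 by limma in either tumor model. In E0771 shPTN cells 2 fell, Layn, which encodes the receptor layilin (−0.65, SE 0.17, limma adjusted p = 0.019), and Habp4 (−0.59, SE 0.09, limma adjusted p = 0.0013). In E0771-LG shPTN cells 3 fell, among them the Toll-like receptor genes Tlr4 (−0.78, SE 0.13, limma adjusted p = 6.8e-04) and Tlr2 (−0.68, SE 0.18, limma adjusted p = 0.0095). The list medians were −0.29 and −0.14. Between lines 2 were higher and 1 lower in E0771-LG with shCtrl, and 3 higher and 1 lower with shPTN (3 higher and 1 lower in each with median-of-ratios scaling), with C1qbp higher by 0.84 (limma adjusted p = 1.7e-04) and 0.80 (limma adjusted p = 1.6e-05).

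CD44 is tied to the cytoskeleton by ezrin-type linkers and is shed or engaged by proteases and other ligands, listed as 18 genes, of which 12 were tested in E0771 and 13 in E0771-LG cells. In E0771 shPTN cells 1 of the 12 rose and 2 fell (median −0.07). Mmp14, a membrane protease that cuts CD44, rose by 0.68 (SE 0.11, limma adjusted p = 0.0024) and Ezr, the ezrin gene, fell by 0.61 (SE 0.08, limma adjusted p = 8.4e-04). In E0771-LG shPTN cells 2 of the 13 rose and 5 fell (median −0.11). Mmp9, a gelatinase that docks on CD44, had log2 values of 4.27, 4.63 and 4.64 with shCtrl and 2.48, 2.85 and 2.75 with shPTN there. The groups lay far apart, and Mmp9 fell by 1.82 (SE 0.18, limma adjusted p = 6.1e-05).

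Mmp9 was also higher in E0771-LG than in E0771, by 3.01 (limma adjusted p = 6.0e-05) with shCtrl and 1.73 (limma adjusted p = 9.8e-04) with shPTN. Of the same CD44 list, 3 of 12 tested were higher and 1 lower in E0771-LG with shCtrl (median −0.11), and 4 of 13 were higher and 6 lower with shPTN (median 0.11). With median-of-ratios scaling these were 3 higher and 0 lower by limma (median 0.04), and 6 higher and 4 lower (median 0.23). In tumors 4 of 18 in 4T1 and 1 of 18 in MMTV-PyMT had an unadjusted p under 0.05 by limma.

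Versican carries chondroitin sulfate chains and meets tenascins, fibulins and fibrillins in the matrix, and 16 of 26 such genes were tested in cells. In E0771 shPTN cells 4 rose and 2 fell (median 0.07), with Tnc, the tenascin-C gene, up by 1.28 (SE 0.22, limma adjusted p = 0.0028) and Csgalnact1, which starts chondroitin chains, down at −1.04 (SE 0.21, limma adjusted p = 0.0066). In E0771-LG shPTN cells, where Vcan itself was low, 1 rose and 2 fell (median −0.14). Both that fell build chondroitin chains, Csgalnact2 at −0.63 (SE 0.12, limma adjusted p = 0.0016) and Chsy1 at −0.49 (SE 0.10, limma adjusted p = 0.0022). In tumors 0 of 19 in 4T1 and 2 of 19 in MMTV-PyMT had an unadjusted p under 0.05 by limma.

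Between lines, 2 of the 16 versican partners were called higher and 8 lower in E0771-LG with shCtrl (median −0.45), and 4 higher and 9 lower with shPTN (median −0.56). With median-of-ratios scaling these were 3 higher and 7 lower (median −0.30) and 4 higher and 9 lower (median −0.45). Fbln2, which encodes the versican ligand fibulin-2, was lower, at −2.60 (limma adjusted p = 5.4e-05) with shCtrl and −1.94 (limma adjusted p = 1.4e-07) with shPTN. Fbn1 of fibrillin-1 was lower, at −1.87 (limma adjusted p = 3.7e-07) with shPTN. Tnc was higher with shCtrl, by 1.89 (limma adjusted p = 2.3e-04).

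Because HMMR works on the spindle, 22 genes of mitosis were described beside it. Their calls stand beside 20.6% of all genes in E0771, 46.4% in E0771-LG, and 54.5% and 63.9% between lines with shCtrl and shPTN. In E0771 shPTN cells 7 rose and 0 fell (median 0.23), among them Ube2c (0.56, SE 0.13, limma adjusted p = 0.014) and Nusap1 (0.46, SE 0.08, limma adjusted p = 0.0032). In E0771-LG shPTN cells 7 rose and 2 fell (median 0.29), with Nusap1, a spindle microtubule binder, up by 0.50 (SE 0.12, limma adjusted p = 0.005) and Kif20a, a kinesin of cytokinesis, at −0.58 (SE 0.11, limma adjusted p = 0.0021). Hmmr lay at 0.26 and 0.72 in the same comparisons. Between lines 4 were higher and 6 lower in E0771-LG with shCtrl (median −0.07), and 5 higher and 11 lower with shPTN (median −0.20), where Hmmr lay at 0.72. With median-of-ratios scaling these were 6 higher and 4 lower (median 0.08), and 6 higher and 8 lower (median −0.09).

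In 4T1 tumors the median of the mitosis list was 0.49, beside 0.01 for all genes, with 8 of 22 at an unadjusted p under 0.05 by limma, beside 719 of all 11467, and 0 called after adjustment. In the same tumors the median was 0.61 for the epithelial, 3.40 for the muscle and −0.71 for the leukocyte markers, whose part in the mitosis values was not tested. As single tumors were left out the mitosis median ran from 0.29 to 0.80 and the count from 2 to 20 of 22. C44 sample 3 and 3B10 sample 1 were each most like the other. Without C44 sample 3 the median was 0.30 and 2 of 22 had such a p (1297 of 11444 among all genes). Without 3B10 sample 1 the median was 0.80 and 20 of 22 did (1067 of 11442 among all genes). Hmmr was at 0.33 with all samples.

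In MMTV-PyMT tumors the median of the mitosis list was 0.32, beside 0.05 for all genes, with 5 of 22 at an unadjusted p under 0.05 by limma, beside 307 of all 11361, and 0 called after adjustment. As single tumors were left out the median ran from 0.22 to 0.39 and the count from 1 to 9 of 22. Hmmr was at 0.07 there.

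Over the whole list, 32 of 68 genes were called between lines with shCtrl (11 higher and 21 lower in E0771-LG), beside 54.5% of all genes, and 50 of 69 with shPTN (17 higher and 33 lower), beside 63.9%. The list medians were −0.17 and −0.23 beside −0.15 and −0.10 for all genes. The direction split depended on the scaling, and with median-of-ratios scaling 31 genes were called with shCtrl (16 higher and 15 lower) and 47 with shPTN (20 higher and 27 lower).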

How the data were processed

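RNA from 24 mouse samples had been sequenced as paired Illumina reads and aligned to mm10, and the submitters' processing notes name HISAT2, featureCounts, edgeR and limma, without versions. The values deposited by the authors are on a log2 scale. In the 18 MMTV-PyMT and cell line columns they were CPM values to which 0.5 reads had been added per gene. Undoing this gave whole reads, at a tolerance of 0.05, for 100% of the values. In the 6 4T1 columns they were adjusted for gene length by steps not given in the sources used here, and whole reads could not be recovered.

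Each comparison of 3 with 3 samples was fitted on the log2 values with limma 3.58.1 (lmFit, eBayes with trend and robust) in R 4.3.3, with Benjamini-Hochberg adjustment over all genes that reached 1, off the log scale, in at least 3 of 6 samples. The method had been run on simulated counts with the same low dispersion for every gene. Such counts do not cover the spread between tumors or the 4T1 scale. The design had planned a count model had the values been counts, and its log2 branch was used. Alternatives were no or a stricter filter, a pseudocount of 1, eBayes without robust, quantile and median-of-ratios scaling, voom on recovered reads, a joint fit of the 12 cell samples, a replicate block and each sample left out. Python 3.11.15, numpy 2.4.6, pandas 2.3.3, scipy 1.17.1 and matplotlib 3.10.9 served for the other steps, and genes were placed by GENCODE M21 on GRCm38.

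The hyaluronan genes and the lists were chosen with earlier results of these data known. From each list at most 2 genes per comparison were named, those with the largest log2 difference among genes with an adjusted p under 0.05 and no overlap between groups. The most abundant gene of each marker list and the 3 genes with the most similar values across the 12 cell samples could also be named. So could the nearest annotated coding gene on either side of each hyaluronan gene, where it was in the table. Not all of these are named here. Marker genes named as low in the cell lines were chosen after their values were seen. A gene that this rule names is not reported here.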

Additional observations from a re-analysis of the deposited data

Results flagged for a closer look

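The difference of the knockdown effect between the lines (limma's interaction term, E0771-LG minus E0771 on the log2 scale, 3 samples in each of 4 groups) was read for 29 named list and marker genes. It had an adjusted p under 0.05 for 15 of them, given here, beside 34.7% of all 10223 genes in the same fit, and not for 14, whose limma adjusted p ran from 0.055 (Mmp9, −1.28) to 0.83 (Nusap1, 0.04). The 29 genes had been named for a large called effect in 1 line or both, on the same samples, which favours a difference, so the p-values describe these genes and are no independent test. None of the 6 hyaluronan genes was tested this way, because they were picked with both effects known.

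Among genes of hyaluronan turnover and precursors, the difference was 0.56 for Hexa (0.19 in E0771 and 0.75 in E0771-LG, limma adjusted p = 0.029), 0.59 for Pgm2 (−0.43 and 0.16, limma adjusted p = 0.015) and −0.77 for Gfpt1 (0.07 and −0.70, limma adjusted p = 0.0019). Among binding proteins it was 0.45 for Habp4 (−0.59 and −0.14, limma adjusted p = 0.019) and −0.96 for Tlr4 (0.18 and −0.78, limma adjusted p = 4.1e-04). Among CD44 linkers and ligands it was 0.59 for Ezr (−0.61 and −0.02, limma adjusted p = 0.0036) and −0.72 for Lgals9, the galectin-9 gene (−0.06 and −0.78, limma adjusted p = 0.025). Around versican it was −1.39 for Tnc (1.28 and −0.11, limma adjusted p = 0.0066) and −0.90 for Csgalnact2 (0.26 and −0.63, limma adjusted p = 7.8e-04). For the mitotic kinesin gene Kif20a it was −0.93 (0.35 and −0.58, limma adjusted p = 3.8e-04).

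Among marker genes, the difference was −5.70 for the collagen gene Col1a1 (1.02 and −4.68, limma adjusted p = 4.9e-06) and −3.29 for Col3a1 (2.83 and −0.45, limma adjusted p = 1.7e-05). It was 1.62 for Krt8 (−0.05 and 1.57, limma adjusted p = 2.6e-05), 3.09 for the macrophage marker Cd68 (−0.92 and 2.17, limma adjusted p = 0.001) and −0.96 for Lyz2 (2.23 and 1.27, limma adjusted p = 0.032). No cause of these differences was tested.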

How the results depend on the processing

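Across the alternatives, 167 counts of called genes stayed within 1.5 times the value given and 7 moved further. Those that stayed include every count of the tumor models, which was 0 in each setting, so the tally says little about them. For the hyaluronan genes between lines, where limma's calls are not used because the libraries entered the choice of genes, 118 values kept direction and side of the threshold, 10 fell short of it, 1 passed it and 3 reversed. This tally includes Hapln1 between the shPTN lines, which had to differ there, and is no evidence of a line difference. Of their values in the 4 inhibition comparisons, 267 moved by less than the spread between replicates and 2 by more, both for Hapln1 in E0771-LG (2.91 with a pseudocount of 1 and 3.48 with quantile normalization).

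All 3 reversals were Cd44 between the shCtrl lines, from −0.04 to 0.11 with median-of-ratios scaling, 0.08 without E0771 shCtrl sample 2 and 0.03 without E0771-LG shCtrl sample 2. With single samples left out it lay between −0.14 and 0.08. The cause was not tested.

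As each sample was left out in turn, the genes called ran from 1164 to 2139 in E0771 and from 3206 to 5113 in E0771-LG, and the hyaluronan-related list genes called from 11 to 26 and from 17 to 32. Fewer samples enter these fits. Between lines, 4469 to 5704 genes (28 to 38 of the list) were called with shCtrl and 5632 to 6674 (45 to 50) with shPTN. With voom weights limma called 2141 genes in E0771, 4824 in E0771-LG, 5718 between shCtrl lines and 6716 between shPTN lines.

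With the replicate number as a block, 2450 genes were called in E0771 (27 of the list), 5012 in E0771-LG (28), 5993 between shCtrl lines (37) and 6178 between shPTN lines (46), and 0 by limma in either tumor model. The correlations of the deviations of same-numbered samples were mixed, at −0.327, 0.436 and −0.253 in 4T1, −0.036, 0.132 and 0.208 in MMTV-PyMT, −0.027, 0.141 and −0.037 in E0771 and 0.158, 0.237 and −0.117 in E0771-LG for numbers 1, 2 and 3. Number 2 was above 0.1 in all 4. Between lines they were 0.167, 0.243 and −0.025 with shCtrl and −0.153, −0.225 and 0.045 with shPTN. In no comparison were all 3 above 0.1, the level set for treating the numbers as pairs, so the samples were not treated as paired.

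Voom and any count of reads were not run for 4T1, whose depth is unknown. Hapln1 between the shPTN lines was refitted without each E0771 sample only, since it was below the filter when an E0771-LG sample was left out.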
